A study of Mus musculus with 4 samples.

Results

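The translation initiation factor genes of the mouse small intestine were compared between mice carrying a CFLARs transgene and wild-type mice. A gene was included when its symbol is Eif followed by a digit and at least 1 probe set carried that symbol alone. Eif2ak2, Eif2ak3, Eif2s3x and Eif2s3y were left out of the rule, and where a gene had several probe sets the brightest over the 4 arrays was taken. This gave 45 genes of the 19938 measured, of which 44 passed the filter on low values (the upper 70% of genes by mean level). The remaining member, Eif4a3l1, had a mean log2 value of 5.73 over the 4 arrays and was not tested, while the tested member nearest to the limit of 7.48 was Eif4e1b, with a mean of 7.90. The mean level over all arrays chose the probe sets and set the filter, and is not used as a result. Eif1, Eif2s1, Eif3g and Eif4g1 are not among the 45 genes, so several complexes below are covered only in part.

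Total RNA was measured on 4 biotin-labelled Affymetrix arrays. CFLARs Tg was represented by 2 arrays of C57BL/6 mice, with titles ending in XCFX and XCFY, and wild-type by 2 arrays of C57BL/6 mice, with titles ending in XX and XY. CFLARs denotes the short splice form made from Cflar (cFLIP), which regulates caspase-8, and the series title concerns necroptosis of the intestinal epithelium. Read from the titles, XCFX and XX are called the XX-type pair and XCFY and XY the XY-type pair, and they are replicate 1 and replicate 2 of each genotype. The promoter that drives the transgene, the age of the mice, the stretch of intestine and the number of animals behind each array are not given in the sources used here. P-values therefore measure only the spread between these arrays, which holds the difference between the pairs and may be technical in part. Any difference in transgene dose between the XCFX and XCFY samples would lie in the same spread.

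Initiation places the small ribosomal subunit, loaded with initiator tRNA by the GTPase eIF2, at the start codon of an mRNA. The cap-binding complex eIF4F and the scaffold eIF3 bring the subunit to the mRNA, eIF1 and eIF1A hold it open while it scans, and eIF5, eIF5B and eIF6 act around the joining of the large subunit. eIF2 has to be recharged by the exchange factor eIF2B, a step that stress kinases block by phosphorylating eIF2. The intestinal epithelium renews itself rapidly and makes large amounts of protein, and both the kinases and the eIF4E-binding proteins are known as points where translation is tuned.

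Initiation factor genes lay mostly higher in CFLARs Tg intestine. Of the 44 genes tested, 11 rose and 1 fell (limma, adjusted p under 0.05 over all 13956 genes tested), and 32 did not pass. The 11 that rose make 25% of the members, against 8.44% of all genes tested that rose, and the 1 that fell makes 2.27%, against 10.9%. The log2 differences (CFLARs Tg minus wild-type) ran from -0.34 for Eif2ak1 to 1.02 for Eif2s2, with a median of 0.20, against a median of -0.01 over all genes tested. In 34 members the difference was above 0 (77.3%, against 47.6% of all genes tested). Both CFLARs Tg arrays read above both wild-type arrays in 31 members (70.5%, against 32.0% of all genes tested), both read below in 7 (15.9%, against 37.6%), and the groups overlapped in 6. Because the tissue was measured in bulk, a change in the share of a cell type and a change in RNA per cell cannot be told apart.

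The calls did not hold without either wild-type array. Over the members, the SD between the arrays of a genotype had a median of 0.07 in CFLARs Tg and 0.04 in wild-type. Where a genotype kept 1 array, that array was assumed to vary like those of the other genotype. Without wild-type replicate 1 the fit called 0 of the 44 members (limma, lowest adjusted p 0.156, 14 at an unadjusted p under 0.05), where 0.301% of all genes passed. Without wild-type replicate 2 it also called 0 members (lowest adjusted p 0.127, 14 at an unadjusted p under 0.05), where 0.287% of all genes passed. Without CFLARs Tg replicate 1, 28 members rose and 4 fell, with 3112 and 3447 of all genes, and without CFLARs Tg replicate 2, 18 members rose and 2 fell, with 1968 and 2558 of all genes. With all 4 arrays an unadjusted p under 0.05 was found for 27 members (61.4%, against 39.1% of all genes tested). When the difference had to exceed 0.5 on the log2 scale (the treat test of limma), 0 members passed (2 at an unadjusted p under 0.05), against 0.451% of all genes.

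**Figure D1:**
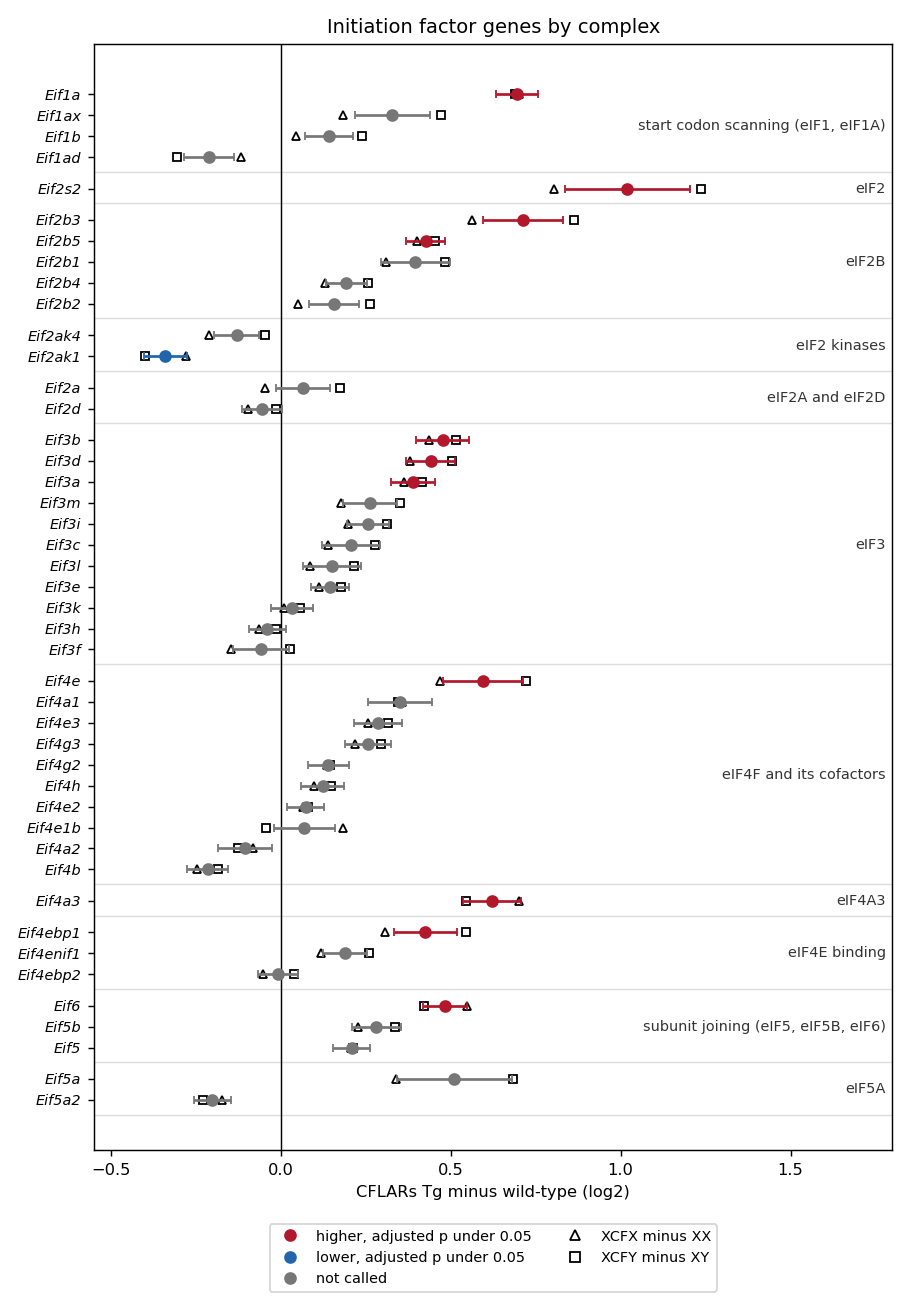
Difference between CFLARs Tg and wild-type (log2) for the 44 tested initiation factor genes, grouped by complex; filled circles with bars are the mean difference ± SE, triangles the XX-type pair and squares the XY-type pair. The 11 genes that rose lie between 0.39 and 1.02, and Eif2ak1, the gene that fell, lies at -0.34.

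Among the genes of eIF2 itself, Eif2s2, which encodes the beta subunit, was tested as a member. It read 10.88 and 11.41 in the CFLARs Tg arrays, against 10.08 and 10.17 in the wild-type arrays. The groups did not overlap, and the XY-type CFLARs Tg array was the higher of the 2. Eif2s2 rose 2.03-fold (log2 difference 1.02, SE 0.18, limma adjusted p = 0.0312), the largest difference among the members. Without CFLARs Tg replicate 2 the difference was 0.76 and without replicate 1 it was 1.28. Eif2s2 has a further probe set that the rule did not take. This probe set read 10.07 and 10.48 in CFLARs Tg, against 9.35 and 9.40 in wild-type, a log2 difference of 0.90 (SE 0.14, adjusted p = 0.0282 over all 21789 probe sets with a single symbol). Both measures of the gene thus gave a rise of similar size. Outside the rule, the X-linked gamma subunit gene Eif2s3x differed by 0.33 (SE 0.13, adjusted p = 0.142), and it read 12.12 and 12.01 in CFLARs Tg, against 11.91 and 11.56 in wild-type.

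All 5 genes of eIF2B lay higher in CFLARs Tg, with both CFLARs Tg arrays above both wild-type arrays in each (32.0% of all genes tested). Of the 5 genes, 2 rose (40.0%, against 8.44% of all genes tested). The genes that rose encode the gamma and epsilon subunits, which form the catalytic part of the exchange factor. Eif2b3 (gamma) read 9.83 and 10.14 in CFLARs Tg, against 9.27 and 9.28 in wild-type, a rise of 1.64-fold (log2 difference 0.71, SE 0.12, adjusted p = 0.0267). Eif2b5 (epsilon) read 9.80 and 9.86 in CFLARs Tg, against 9.40 and 9.41 in wild-type, a rise of 1.34-fold (log2 difference 0.43, SE 0.06, adjusted p = 0.0213). In both genes the wild-type arrays nearly coincided. The regulatory subunit genes did not pass: Eif2b1 (alpha) differed by 0.40 (SE 0.10, adjusted p = 0.0582), Eif2b4 (delta) by 0.19 (SE 0.06) and Eif2b2 (beta) by 0.16 (SE 0.07). Eif2b1 passed in the fit with sex type as a block (limma adjusted p = 0.0293). Whether the catalytic and regulatory subunit genes differ from each other was not tested.

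Of the 2 members that encode kinases of eIF2, 1 fell, where 10.9% of all genes tested fell. A list of 2 genes is too short to set against that share. Eif2ak1, which encodes the heme-regulated kinase HRI, was the member that fell, with 10.02 and 9.92 in CFLARs Tg, against 10.30 and 10.32 in wild-type (log2 difference -0.34, SE 0.06, adjusted p = 0.0321). In linear terms the CFLARs Tg level was 0.79 of the wild-type level. Eif2ak4, the gene of GCN2, which senses uncharged tRNA, read 9.22 and 9.28 in CFLARs Tg, against 9.43 and 9.33 in wild-type, and did not pass (difference -0.13, SE 0.07, adjusted p = 0.221). The kinases outside the rule did not pass either: Eif2ak2 (PKR) differed by 0.06 (SE 0.14) and Eif2ak3 (PERK) by -0.06 (SE 0.05). HRI is best known from red cell precursors. Of 12 erythroid markers, 9 were measured and 5 were tested, of which 0 passed (limma, adjusted p from 0.318 to 0.768, 0 at an unadjusted p under 0.05). The summed unlogged signal of the 9 was 1990 and 1880 in CFLARs Tg, against 1790 and 2020 in wild-type. The part of red cell precursors in the difference of Eif2ak1 was not tested.

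Eif2a and Eif2d, whose proteins can deliver initiator tRNA without eIF2, differed little between the genotypes. Eif2a differed by 0.06 (SE 0.08), with overlapping arrays, and Eif2d by -0.06 (SE 0.06). Neither passed (adjusted p = 0.599 and 0.535).

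Of the 4 tested genes for start codon scanning, 1 rose, too few to set against the 8.44% of all genes tested. The gene that rose was Eif1a. It encodes a form of eIF1A and read 9.99 and 10.05 in CFLARs Tg, against 9.29 and 9.36 in wild-type, a rise of 1.62-fold (log2 difference 0.69, SE 0.06, adjusted p = 0.0154, the lowest among the members). The XX-type pair gave a difference of 0.70 and the XY-type pair a difference of 0.69. Eif1ax, the X-linked gene for the same factor, read 10.57 and 10.87 in CFLARs Tg, against 10.38 and 10.39 in wild-type. It did not pass (difference 0.33, SE 0.11, adjusted p = 0.102), and the CFLARs Tg arrays differed from each other by more than the XX-type CFLARs Tg array did from wild-type. Eif1b, a paralogue of the eIF1 gene, differed by 0.14 (SE 0.07). Eif1ad, which carries an eIF1A-like domain and is known in human cells from the maturation of the small subunit rather than from scanning, differed by -0.21 (SE 0.07, adjusted p = 0.108).

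The scaffold eIF3 was measured through 11 subunit genes. Of these, 3 rose (27.3%, against 8.44% of all genes tested) and 0 fell (against 10.9%). At an unadjusted p under 0.05 (limma) there were 5, all of them higher. Eif3b read 11.94 and 12.09 in CFLARs Tg, against 11.50 and 11.58 in wild-type, a rise of 1.39-fold (log2 difference 0.48, SE 0.08, adjusted p = 0.0274). Eif3d, whose product contacts mRNA caps in human cells, read 11.19 and 11.34 in CFLARs Tg, against 10.81 and 10.83 in wild-type, a rise of 1.36-fold (SE 0.07 on the log2 scale, adjusted p = 0.0267). Eif3a, the largest subunit, read 10.88 and 10.98 in CFLARs Tg, against 10.51 and 10.56 in wild-type, a rise of 1.31-fold (SE 0.07 on the log2 scale, adjusted p = 0.0280). In each of the 3 genes the groups stood apart by more than the distance between arrays of a genotype.

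The eIF3 subunit genes were spread unevenly. Eif3i, whose product sits with the a and b subunits in the part of eIF3 that yeast also has, differed by 0.26 (SE 0.06, adjusted p = 0.0526). Eif3i passed after quantile normalization, after median centring and with the lowest 50% of genes left out. It did not pass without a filter (limma adjusted p = 0.066), with sex type as a block (0.0745) or with the median of probe sets (0.0523). Eif3a, Eif3b and Eif3i together had a median difference of 0.39, and the other 8 subunit genes had a median of 0.15. This grouping is not the whole part shared with yeast, since Eif3c, whose subunit yeast also has, was counted among the other 8. It was made after the values were seen and was not tested. At the low end, Eif3f read 11.99 and 12.18 in CFLARs Tg, against 12.14 and 12.15 in wild-type, Eif3h differed by -0.04 (SE 0.06) and Eif3k by 0.03 (SE 0.06). Between these lay Eif3m (0.26, SE 0.08), Eif3c (0.21, SE 0.09), Eif3l (0.15, SE 0.09) and Eif3e (0.14, SE 0.06), which did not pass (adjusted p from 0.0808 to 0.264). The plot by complex shows this spread as the longest run of points.

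Of the 10 tested genes of eIF4F and its cofactors, 1 rose, a share near the 8.44% of all genes tested that rose. In the same list 0 fell, against 10.9% of all genes tested. Eif4e, the gene of the cap-binding protein, read 10.31 and 10.62 in CFLARs Tg, against 9.84 and 9.90 in wild-type, a rise of 1.51-fold (log2 difference 0.60, SE 0.12, adjusted p = 0.0359). The other probe sets of Eif4e did not show a rise of this size. The second of them read 9.16 and 9.15 in CFLARs Tg, against 8.92 and 8.95 in wild-type (difference 0.22, SE 0.06, adjusted p = 0.0714). The third read 8.25 and 7.89 in CFLARs Tg, against 8.05 and 8.19 in wild-type, with overlapping arrays (difference -0.05, SE 0.13). With the median of the probe sets in place of the brightest, Eif4e differed by 0.22 and was not called.

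Of the eIF4A helicase genes tested, Eif4a3 rose, where 8.44% of all genes tested rose. Eif4a1 read 13.46 and 13.62 in CFLARs Tg, against 13.10 and 13.27 in wild-type, and did not pass (difference 0.35, SE 0.09, adjusted p = 0.0642), but did so once sex type was blocked (limma adjusted p = 0.0297). Its 3 probe sets agree within their errors, with differences of 0.33, 0.35 and 0.37 and adjusted p from 0.0590 to 0.0760 over all probe sets with a single symbol. Eif4a2, the paralogue that is also linked to microRNA repression, differed by -0.10 (SE 0.08). Whether the paralogues differ from each other was not tested. Eif4a3, whose helicase marks exon junctions after splicing rather than acting in cap-dependent initiation, read 9.84 and 9.88 in CFLARs Tg, against 9.14 and 9.33 in wild-type. It rose 1.54-fold (log2 difference 0.62, SE 0.09, adjusted p = 0.0219).

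Cofactors of the helicase did not pass in either direction. Eif4b differed by -0.22 (SE 0.06, adjusted p = 0.0686), with both CFLARs Tg arrays below both wild-type arrays, and Eif4h by 0.12 (SE 0.06). Among the scaffold genes Eif4g3 differed by 0.26 (SE 0.07, adjusted p = 0.0610) and Eif4g2, whose product lacks the eIF4E-binding part, by 0.14 (SE 0.06). Of the other cap-binding genes, Eif4e3 differed by 0.29 (SE 0.07, adjusted p = 0.0525), Eif4e2, the gene of the repressor 4EHP, by 0.07 (SE 0.05) and Eif4e1b, known from oocytes, by 0.07 (SE 0.09).

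The eIF4E-binding proteins hold eIF4E away from the scaffold until they are phosphorylated under mTOR. Eif4ebp1 read 10.88 and 11.10 in CFLARs Tg, against 10.57 and 10.56 in wild-type, a rise of 1.34-fold (log2 difference 0.43, SE 0.09, adjusted p = 0.0424). Eif4ebp2 read 11.33 and 11.35 in CFLARs Tg, against 11.39 and 11.31 in wild-type, a difference of -0.01 (SE 0.06). The arrays of Eif4ebp1 stood apart by genotype and those of Eif4ebp2 overlapped. Eif4enif1, the gene of the eIF4E transporter 4E-T, differed by 0.19 (SE 0.06, adjusted p = 0.103).

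At the joining of subunits, all 3 genes lay higher in CFLARs Tg on both arrays (32.0% of all genes tested). Of the 3 genes, 1 rose (33.3%, against 8.44% of all genes tested). Eif6, whose product keeps the large subunit from joining too early and acts in its maturation, read 11.69 and 11.68 in CFLARs Tg, against 11.14 and 11.25 in wild-type, a rise of 1.40-fold (log2 difference 0.48, SE 0.07, adjusted p = 0.0213). The GTPase gene Eif5b differed by 0.28 (SE 0.07, adjusted p = 0.0579). Eif5, the gene of the protein that activates the GTPase of eIF2, differed by 0.21 (SE 0.05, adjusted p = 0.0601).

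Eif5a and Eif5a2 encode the hypusine-carrying factor eIF5A, now known mainly for its part in elongation and termination. Eif5a read 12.19 and 12.66 in CFLARs Tg, against 11.85 and 11.98 in wild-type (difference 0.51, SE 0.17, adjusted p = 0.0986, and 0.0287 with sex type as a block, where it passed). A further probe set of Eif5a read 10.28 and 10.45 in CFLARs Tg, against 9.98 and 9.97 in wild-type, and rose in the fit over all probe sets (difference 0.39, SE 0.08, adjusted p = 0.0416). The call for this gene thus differed between its probe sets while the direction did not. Eif5a2 differed by -0.20 (SE 0.06, adjusted p = 0.0667).

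**Figure D2:**
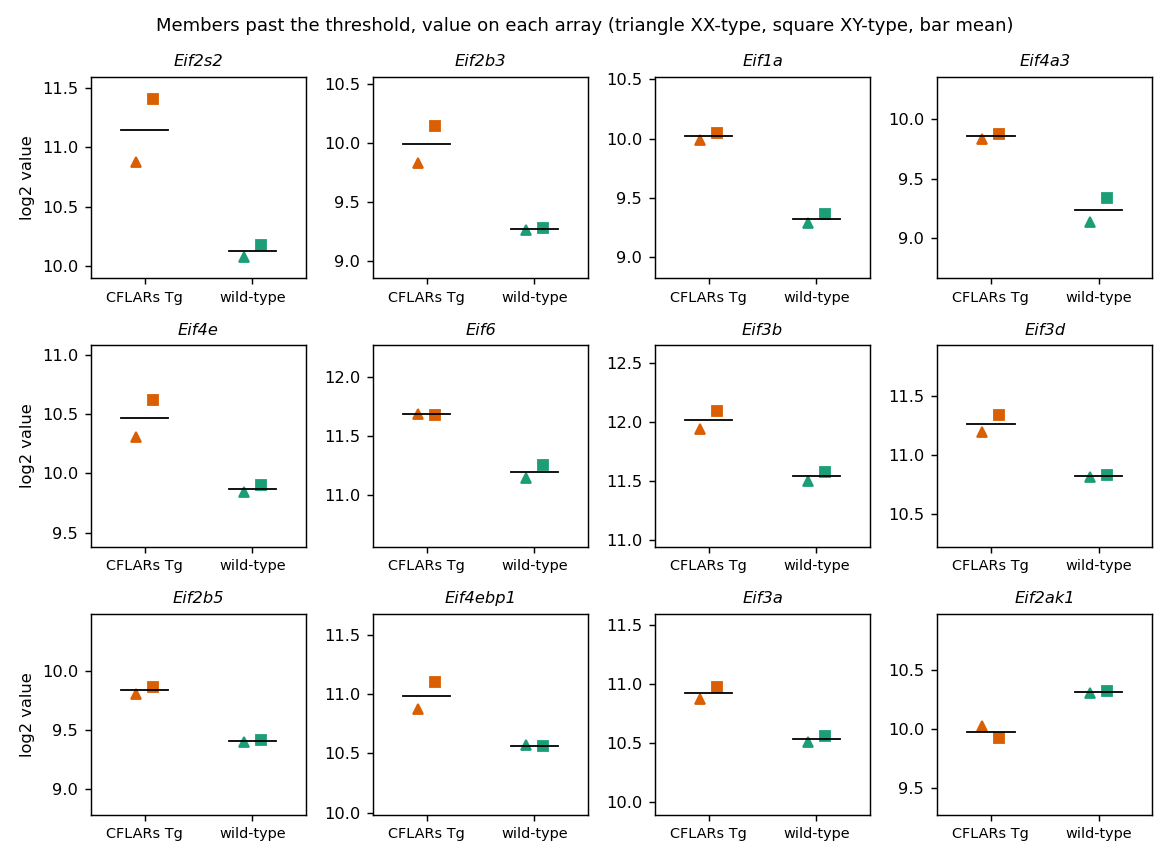
Deposited log2 value of the 12 members past the threshold on each array, CFLARs Tg on the left and wild-type on the right of each panel; triangles are XX-type arrays, squares XY-type arrays, bars the mean of 2 arrays, and every panel spans the same range of log2 units. The CFLARs Tg and wild-type arrays do not overlap in any of the 12 panels, and Eif2ak1 is the panel with wild-type higher.

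Further probe sets gave a measure that the rule had not used. The 7 members with more than 1 probe set had 9 others, of which 7 gave a difference above 0 and 2 below 0. In the fit over all probe sets with a single symbol, 2 of the 9 rose, those of Eif2s2 and Eif5a, and 0 fell (limma), where 11.8% of all such probe sets passed in either direction.

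**Figure D3:**
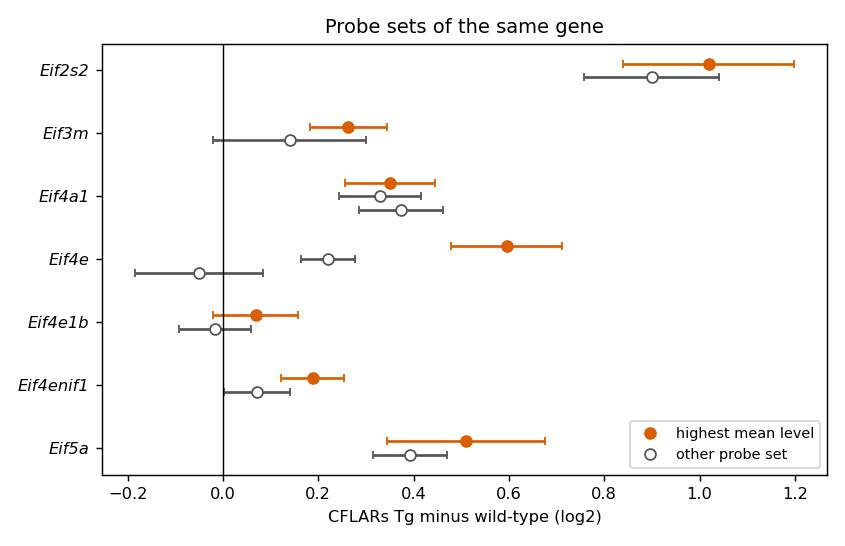
Difference between CFLARs Tg and wild-type (log2, bars ± SE) for every probe set of the 7 members that have more than 1, with the brightest probe set filled and the others open. The probe sets of Eif2s2 (1.02 and 0.90) and of Eif4a1 lie close together, whereas those of Eif4e run from -0.05 to 0.60.

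The 2 pairs of arrays went the same way in most members. Both pairs gave a difference above 0 in 32 of the 44 genes (72.7%, against 35.8% of all genes tested) and below 0 in 8 (18.2%, against 41.1%). The XX-type pair (XCFX minus XX) had a median difference of 0.16 and the XY-type pair (XCFY minus XY) a median of 0.26, and over all genes tested the medians were -0.02 and -0.01. The XY-type pair showed the larger size of difference in 33 members (75%, against 60.7% of all genes tested), and in 8 of the 11 that rose; Eif1a, Eif4a3 and Eif6 were the exceptions among those. Each pair holds 1 array of each genotype, so these values have no replicate and no test. Sex type and any difference in transgene dose between XCFX and XCFY cannot be told apart here.

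Markers of other programmes also moved in these libraries. Of 19 cell cycle genes tested, 4 rose (21.1%, against 8.44% of all genes tested) and 0 had a difference below 0. Those that rose were Rrm2, Mcm3, Top2a and Mcm5, by 0.69, 0.57, 0.48 and 0.47. The summed unlogged signal of the 19 measured genes (20 listed) was 37500 and 45800 in CFLARs Tg, against 32600 and 33400 in wild-type. Of 7 neutrophil markers tested (11 of 11 measured), 6 rose and 0 had a difference below 0. The largest differences were those of S100a9 (2.71), S100a8 (2.67), Cxcr2 (2.43) and Ly6g (1.81). S100a8, S100a9, Cxcr2, Ly6g and Csf3r had wild-type means below 7.48, so they passed the filter only through their CFLARs Tg arrays. The counts for this list thus follow in part from the filter. Without a filter 5 of the 11 were called higher, and Camp differed by -0.03. The summed signal of the 11 was 3400 and 7160 in CFLARs Tg, against 1630 and 1790 in wild-type. The 12 enterocyte markers, all measured, summed to 93400 and 71700 in CFLARs Tg, against 101000 and 102000 in wild-type. The brush border gene Vil1 read 12.21 and 11.99 in CFLARs Tg, against 12.18 and 12.17 in wild-type, so this defining marker of the labelled tissue was present in every array. Of the 11 enterocyte markers tested, 1 rose, Krt20 (by 1.35), a share of 9.09%, near the 8.44% of all genes tested. In the same list 0 fell, against 10.9% of all genes tested (limma, 6 at an unadjusted p under 0.05). Fabp1, Fabp2 and Alpi differed by -0.81, -0.72 and -0.52 without passing. Sums for monocyte and macrophage markers (11 of 12 measured) were 6620 and 9340 in CFLARs Tg, against 5660 and 5670 in wild-type, and 0 of 10 tested passed (limma, 5 at an unadjusted p under 0.05), with the largest differences in Itgam (1.22), Cd14 (1.11), Lyz2 (0.99) and Fcgr3 (0.91). Smooth muscle markers (9 of 9) summed to 48300 and 53900 in CFLARs Tg, against 46200 and 46400 in wild-type. Lymphocyte markers (9 of 10) summed to 1430 and 1390 in CFLARs Tg, against 1360 and 1370 in wild-type. Liver markers (8 of 8) summed to 8350 and 3920 in CFLARs Tg, against 10900 and 16400 in wild-type, and pancreatic acinar markers (7 of 9) to 1990 and 1270 in CFLARs Tg, against 2250 and 9520 in wild-type. The smooth muscle, lymphocyte and pancreatic lists had 0 calls (limma, 2, 0 and 1 genes at an unadjusted p under 0.05), and 1 liver gene fell, Ttr (by 0.84). Larger liver differences, of Alb (-3.21), Ahsg (-2.38), Tat (1.36) and Fgb (-1.31), did not pass. Cd14 and Tat had wild-type means of 7.32 and 7.39, below 7.48, so they too passed the filter only through their CFLARs Tg arrays. The acinar gene Cpa1 read 8.26 and 8.38 in CFLARs Tg, against 8.43 and 10.52 in wild-type, so wild-type replicate 2 alone stood high. Without wild-type replicate 1 the acinar median difference was -2.20, and without wild-type replicate 2 it was -0.02. No marker is listed at 0. The part of these cell types in the differences of the initiation factor genes was not tested.

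These marker counts moved with the arrays used and with the block. Without wild-type replicate 1 or 2, 0 cell cycle, 0 neutrophil, 0 monocyte and macrophage, 0 enterocyte and 0 liver genes passed (limma), and Cpa1 was the 1 acinar gene that passed, lower, without replicate 1. Leaving out either CFLARs Tg array raised the number of calls over all genes and in most of these lists. Without CFLARs Tg replicate 1 the median difference was 0.56 for cell cycle, 2.21 for neutrophil and 0.51 for monocyte and macrophage genes. For smooth muscle, enterocyte, liver and acinar genes it was 0.23, -0.33, -1.57 and -1.10. Without CFLARs Tg replicate 2 the medians were, in the same order, 0.21, 1.41, 0.20, 0.05, -0.13, -0.32 and -1.09. With sex type as a block, 1411 of all 13956 genes rose and 1701 fell. In that fit 9 of 19 cell cycle, 7 of 7 neutrophil and 5 of 10 monocyte and macrophage genes rose (Lyz2, Cd14, Itgam, Fcgr3 and Fcgr1), and Alpi fell. Krt20 rose and Ttr fell in the blocked fit, and the liver gene Tat was called higher there. The calls of Cd14 and Tat in that fit follow in part from the filter. Without a filter on low values Rrm2 and S100a8 were not called and the enterocyte gene Sis was called lower.

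Partners of the initiation factors that carry other names were counted in the same fit. Of 16 tested, 7 rose (43.8%, against 8.44% of all genes tested), 1 fell (6.25%, against 10.9%) and 8 did not pass, with a median of 0.26. Pdcd4, the gene of an inhibitor of eIF4A, read 10.57 and 10.74 in CFLARs Tg, against 11.84 and 11.65 in wild-type, and fell by 1.09 on the log2 scale (SE 0.10, adjusted p = 0.0161). This difference is larger in size than that of any member. Abce1, which recycles ribosomes, read 11.61 and 11.88 in CFLARs Tg, against 10.93 and 11.07 in wild-type, and rose by 0.74 (SE 0.11, adjusted p = 0.0247). The scanning helicase gene Dhx29 rose by 0.58 (SE 0.11) and Larp1, which binds mRNAs of the translation machinery, by 0.48 (SE 0.05). In contrast the poly(A)-binding protein gene Pabpc1 (0.10, SE 0.06), chosen after its value was seen, did not pass.

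Of 14 genes of elongation and termination, 4 rose (28.6%, against 8.44% of all genes tested) and 1 fell (7.14%, against 10.9%). The median was 0.12. Eef1e1, a component of the tRNA synthetase complex, rose by 0.66 (SE 0.08, adjusted p = 0.0193). The release factor genes Etf1 and Gspt1 rose by 0.64 (SE 0.12) and 0.39 (SE 0.09, adjusted p = 0.0498), and Eef1d rose by 0.36 (SE 0.07). Eef2k, the kinase that inhibits the elongation factor eEF2, was the gene that fell, by 0.27 (SE 0.06, adjusted p = 0.0445); it was named after its value was seen. Without a filter on low values, the calls of Gspt1 and Eef2k were lost, and with sex type as a block that of Eef2k was lost. Eef2 and Eef1a1, chosen in the same way, differed by -0.02 (SE 0.06) and -0.03 (SE 0.05).

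Of the 17 mTOR and MAPK genes that control initiation, 0 were called higher (limma, 6 at an unadjusted p under 0.05 in either direction), against 8.44% of all genes tested, and 2 were called lower (11.8%, against 10.9%). The share called lower was near that of all genes, and the median was -0.06, against -0.01. Castor1, an arginine sensor of the mTOR pathway, fell by 0.62 (SE 0.10, adjusted p = 0.0255), and Tsc1, part of the complex that restrains mTOR, fell by 0.30 (SE 0.06, adjusted p = 0.0343). Rraga and Deptor differed by 0.24 (SE 0.08) and -0.22 (SE 0.08) without passing.

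Of 18 integrated stress response genes tested, 6 rose (33.3%, against 8.44% of all genes tested) and 1 fell (5.56%, against 10.9%). The median was 0.16. Besides genes that act after eIF2 phosphorylation, the list holds the eIF2 kinase genes Eif2ak2 and Eif2ak3. It also holds Gcn1 and Impact, whose products act on the kinase GCN2. Gcn1 was among the genes that rose (by 0.27, SE 0.06, limma adjusted p = 0.0410). Ppp1r15a, which targets the phosphatase that restores eIF2, read 8.65 and 8.76 in CFLARs Tg, against 8.13 and 7.94 in wild-type, and rose by 0.67 (SE 0.09, adjusted p = 0.0208). Asns and Nupr1 rose by 1.08 (SE 0.19) and 0.75 (SE 0.12), while Psat1 differed by 1.06 (SE 0.28, adjusted p = 0.0638). The factor gene Atf4 itself, chosen after its value was seen, rose by 0.28 (SE 0.05, adjusted p = 0.0345), and Sesn2, chosen likewise, fell by 0.60 (SE 0.08). With sex type as a block the list again had 6 genes higher and 1 lower, but Atf4 and Gcn1 were no longer called and Psat1 and Ppp1r15b were. None of the called genes of these lists passed without wild-type replicate 1 or without wild-type replicate 2 (limma, 0 of the 16 initiation partners, 14 elongation and termination genes, 17 mTOR and MAPK genes and 18 stress response genes).

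**Figure D4:**
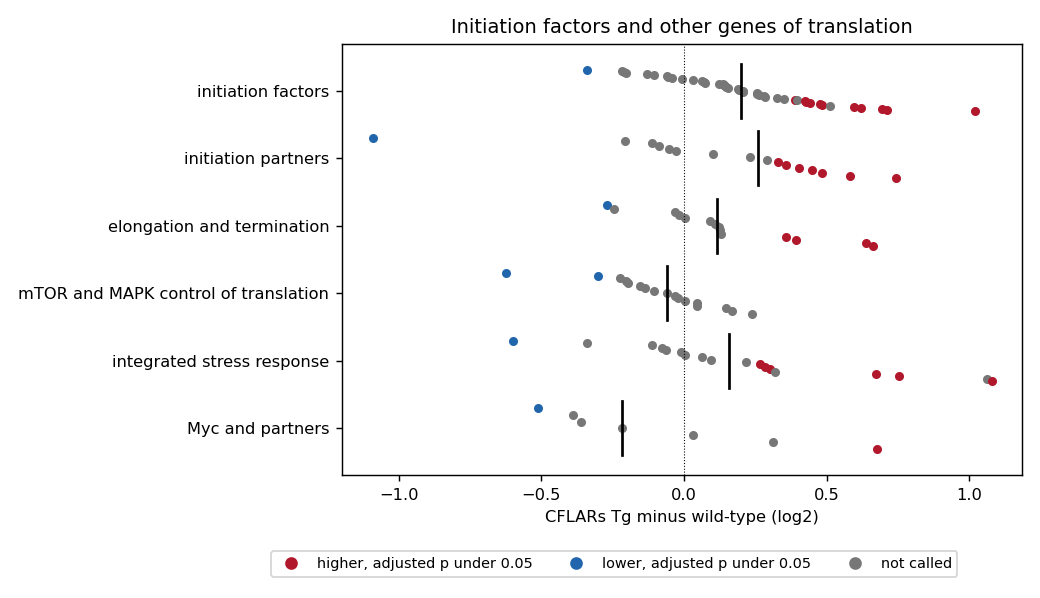
Difference between CFLARs Tg and wild-type (log2) for the tested initiation factor genes and for 5 lists of related genes, 1 point per gene, with a vertical bar at the median of each list. The medians run from 0.26 for initiation partners to -0.22 for Myc and its partners, and the mTOR and MAPK list has no gene in the colour for higher.

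Myc drives genes of the translation machinery through E-boxes, and its partners decide whether such a site is activated. Myc read 10.75 and 11.10 in CFLARs Tg, against 10.32 and 10.17 in wild-type, and rose by 0.68 (SE 0.13, adjusted p = 0.0357). Of the 7 genes of the Myc list 1 rose and 1 fell (14.3% each, against 8.44% and 10.9% of all genes tested). Mxd4, a repressor that competes with Myc for Max, fell by 0.51 (SE 0.06, limma adjusted p = 0.0179). Mycn and Max differed by -0.39 (SE 0.10) and -0.36 (SE 0.12) without passing, and both were called lower with sex type as a block, where 1 gene of the list rose and 3 fell. Neither Myc nor Mxd4 passed without wild-type replicate 1 or 2 (limma, 0 of 7 genes).

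The promoters of the members were searched for the E-box CACGTG, which reads the same on both strands, and for TGATGNAA, the element bound by ATF4 with C/EBP partners, on both strands. RefSeq windows (GRCm38.p6) of the 250 bases before an annotated start were found for 35 of the 45 members, 48 windows in all. The E-box was present in 10 of the 48 windows (20.8%), from 8 genes, against 6.02% of all 32851 windows. Of the 7 genes that rose and had a window, 1 held an E-box, Eif4e. The ATF4 element was in 0 of the 48 windows, against 3.45% of all windows. A match is a description of the letters and does not show that a factor was bound. The motifs do not overlap each other, and windows of 1 gene can share bases.

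The Eif4e window with a pair of E-boxes (chr3:138527018-138527267, GRCm38.p6, plus strand) is printed because Eif4e is the member that both rose and held the motif, which stands in capitals.
Eif4e: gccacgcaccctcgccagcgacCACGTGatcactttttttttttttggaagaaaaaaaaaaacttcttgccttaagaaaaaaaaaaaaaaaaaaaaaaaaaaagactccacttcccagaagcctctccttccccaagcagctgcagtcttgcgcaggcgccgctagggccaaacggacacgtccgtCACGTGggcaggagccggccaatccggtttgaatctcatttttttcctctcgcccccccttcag
The E-boxes start 228 and 64 bases before the annotated start of Eif4e. The other window of Eif4e (chr3:138525941-138526190) held 0 E-boxes. With the median of its probe sets Eif4e was not called.

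For comparison, 30 bases with an E-box (for Eif5a, 1 of its 2 sites) are given for members that were not called, with the motif in capitals, each read 5′ to 3′ on the strand of its gene.
Eif5a (chr11:69921443-69921472, minus strand): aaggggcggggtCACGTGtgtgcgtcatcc
Eif4a1 (chr11:69672595-69672624, minus strand): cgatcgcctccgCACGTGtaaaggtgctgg
Eif4h (chr5:134639488-134639517, minus strand): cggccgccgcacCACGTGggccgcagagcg
Eif1b (chr9:120492570-120492599, plus strand): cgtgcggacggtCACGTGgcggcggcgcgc
Eif3f (chr7:108934335-108934364, plus strand): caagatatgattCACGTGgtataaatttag
Eif3k (chr7:28981915-28981944, minus strand): ctggaaggaaatCACGTGgtagacaaaaaa
Their differences between the genotypes ran from -0.06 (Eif3f) to 0.51 (Eif5a), and Eif5a2, which held a pair of E-boxes, differed by -0.20. E-boxes thus stood in windows of members with differences on both sides of 0.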

How the data were processed

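Small intestine RNA of 2 CFLARs Tg and 2 wild-type samples was measured on arrays. The authors deposited log2 values for 28856 probe sets; how they were summarised and normalized is not given in the sources used here. Array medians lay between 8.31 and 8.33. Signal over background, for which no detection values were used, and the number of arrays limit the precision. Names came from the platform annotation: 21789 probe sets had 1 gene symbol, 1621 several and 5446 none. The brightest probe set stood for each of 19938 genes, and the 30% with the lowest mean (below 7.48) were left out. Both genotypes were compared with limma 3.58.1 in R 4.3.3 (lmFit, eBayes, no covariates, 2 residual and 2.64 prior degrees of freedom), with Benjamini-Hochberg adjustment over 13956 genes. The fit was tested on simulated data. Differences near background understate changes in RNA. The members and lists were chosen with earlier results of these data known, so no p-value was adjusted over a list. Every member was named. Of the translation, Myc, cell cycle, enterocyte, neutrophil, macrophage and liver lists, the 4 largest differences were named, and other genes where stated or where few were called; the erythroid, lymphocyte, smooth muscle and acinar lists are given by counts and sums. Summed signals are sums of unlogged values over a list's measured genes. Alternatives covered filters, scaling, probe sets, sex type as a block, a minimum difference and leaving out each array.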

Additional observations from a re-analysis of the deposited data

Results flagged for a closer look

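In 4 tested members the 2 pairs of arrays went opposite ways. Eif2a differed by -0.05 (XCFX minus XX) and 0.17 (XCFY minus XY). In the same order of pairs, Eif3f differed by -0.15 and 0.03, Eif4e1b by 0.18 and -0.04, and Eif4ebp2 by -0.05 and 0.04. Each pair holds 1 array of each genotype, so the difference between the pairs was not tested, and none of these 4 genes was called (limma, 0 genes, and 0 at an unadjusted p under 0.05).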

How the results depend on the processing

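The number of members called higher (11) and lower (1) stayed within 1.5 times of itself without a filter, with the lowest 50% of genes left out, after quantile normalization or median centring, with the median of probe sets and with sex type as a block, from 10 to 14 higher and 1 lower. In these settings all 12 called members passed, except that Eif4e was lost with the median of probe sets. Against a minimum difference of 0.5, 0 members were higher and 0 lower, with 53 and 10 of all genes. Leaving out 1 array gave from 0 to 28 members higher and from 0 to 4 lower, and from 34 to 3112 of all genes higher and from 3 to 3447 lower. All 12 calls were lost without wild-type replicate 1 or 2 and all 12 held without CFLARs Tg replicate 1 or 2. The members' median ran from 0.15 to 0.24 over these 4 fits. Small uncalled differences changed sign among the 4 fits that leave out an array, from -0.0397 to 0.1774 for Eif4e1b, from -0.0438 to 0.0279 for Eif4ebp2, from -0.0110 to 0.0750 for Eif3k, from -0.1531 to 0.0349 for Eif3f and from -0.0223 to 0.1505 for Eif2a. The cause was not tested. The paired fit, with the sex type read from the titles (and so replicate 1 and 2) as a block, gave 14 members higher and 1 lower and added 3 calls, Eif2b1, Eif4a1 and Eif5a. The block leaves fewer residual degrees of freedom than the 2 of the main fit, which limits every call made with it.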
